A study of Mus musculus with 6 samples.

Results

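The untreated state of mouse bone marrow-derived macrophages was described from the 2 samples labelled as PBS treated, out of 6 samples in the series. PBS, phosphate-buffered saline, is the buffer control, and both samples were chosen by that label alone. The other 4 samples had been given KN93, an inhibitor of calcium/calmodulin-dependent protein kinases, at 5 or 10 µM and were not used. All cells came from bone marrow of C57BL/6 mice with a stated age of 6 weeks. No genotype change, sex, culture medium, differentiation factor or treatment time is given in the labels, and nothing says that the 2 samples came from separate cultures or animals. With 1 group of 2 samples there is no test, and each level is given as the value in replicate 1 followed by the value in replicate 2.

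Bone marrow-derived macrophages are grown from marrow precursors that proliferate and differentiate under signals through the receptor of colony-stimulating factor 1. The transcription factor PU.1, encoded by Spi1, works with C/EBP, IRF and MAF family factors to keep the macrophage program on. Mature macrophages engulf particles and dying cells, digest them in lysosomes, store iron and export cholesterol. They sense microbes through pattern recognition receptors, antibodies through Fc receptors and tissue signals through cytokine and chemoattractant receptors.

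Levels are FPKM, fragments per kilobase of exon and per 1000000 fragments, as deposited for 54446 entries. FPKM is a value per length, so that levels of different genes can be ordered. Rank 1 is the entry with the highest mean of both samples, and an entry counts as detected at 1 FPKM or more in both. The scale of the values implied totals, in units of 1000000 fragments, of 26.9 in replicate 1 and 28.3 in replicate 2. At that depth 3 fragments of a gene with 1000 exon bases are worth 0.111 and 0.106 FPKM, so that a value under 0.1 FPKM for a gene of that length rests on 3 fragments or fewer. In bulk samples fewer cells of a type and less RNA per cell cannot be told apart.

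Of all entries, 11808 (21.7%) were detected, with a median of 7.07 FPKM, and 27846 (51.1%) were listed at 0 in both samples. Protein-coding genes made up 10227 of the detected entries, 46.7% of the 21918 coding genes in the table. That share is the background for the list counts below. Levels were steeply graded: 355 coding genes reached 100 FPKM in both samples and 27 reached 1000 FPKM. The 10 highest entries held 16.9% and 17.1% of the summed FPKM, and the 100 highest held 38% in each sample. Of the 699 immunoglobulin and T cell receptor entries 0 were detected.

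Lysozyme and ferritin led the transcriptome. Lyz2, the lysozyme that cleaves bacterial cell walls, was at 15399.7 and 15052 FPKM. Fth1, the ferritin heavy chain that oxidises and stores iron, was at 15160.3 and 15191 FPKM. The order of the pair turned with the sample, Lyz2 being first in replicate 1 and Fth1 first in replicate 2, so that these values do not differ beyond the spread. That tie rests on exon length: Fth1 had 1415173 and 1493266 fragments against 545337 and 561270 for Lyz2. With the shorter exon length of the basic annotation set, an alternative chosen after seeing the data, Fth1 would be at 33756 and 33825 FPKM while Lyz2 would keep its values. As deposited, the pair held 8.91% and 8.79% of the summed FPKM. Apoe, the apolipoprotein that carries exported cholesterol, followed them at 6149 and 6657 FPKM. The 30 highest entries comprised 28 coding genes and 2 pseudogenes, and 2 of them are encoded by the mitochondrial genome.

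Lysosomal proteins filled many of the leading places. Psap, the precursor of the saposins that help to break down sphingolipids, was at 4021 and 4442 FPKM. Ctsd, an aspartic protease, reached 2455 and 2672 FPKM. The cysteine proteases Ctss, at 2121 and 2199.6 FPKM, and Ctsb, at 1554 and 1598 FPKM, were less abundant than Ctsd in both samples. Ctsz, a further cathepsin, was at 1478 and 1407 FPKM. Grn, the progranulin precursor, was at 1266 and 1233 FPKM, and the membrane protein Lamp1 at 1078 and 1066 FPKM. Gpnmb, a lysosomal glycoprotein of phagocytes, was at 1004 and 1069 FPKM.

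Class I antigen presentation and innate defence were also among the 30. B2m, the shared light chain of class I molecules, was at 4024 and 3883 FPKM. The heavy chains H2-D1, at 1499.6 and 1472 FPKM, and H2-K1, at 1308 and 1301 FPKM, were lower than B2m in both samples. Chains of C1q, which starts the classical complement pathway, stood there too, C1qb at 2234 and 2158 FPKM and C1qa at 1091 and 1097 FPKM. Ifitm3, an antiviral membrane protein, was at 2306 and 2055 FPKM. Bst2, the virus-tethering protein tetherin, was at 1309 and 1241 FPKM. Ccl5, a chemokine for T cells and monocytes, was the highest of the chemokines at 2081 and 1806 FPKM. Thbs1, the matrix protein thrombospondin, took rank 30 with 956 and 1082 FPKM.

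The rest of the 30 were general cell components. Actb, cytoskeletal actin, was at 3129.7 and 2816 FPKM. The actin-binding peptide gene Tmsb4x reached 2056 and 1917 FPKM. Eef1a1, the elongation factor that brings tRNA to the ribosome, was at 2462 and 2447 FPKM. Ftl1, the ferritin light chain, was at 2554 and 2761 FPKM, well below the heavy chain per length. The cytochrome c oxidase subunits mt-Co1 at 2723 and 2759 FPKM and mt-Co2 at 1524 and 1529.7 FPKM stood for the mitochondrial genome. Rplp1, a protein of the ribosomal stalk, was at 1171 and 1256 FPKM, and Itm2b, a membrane protein of the secretory pathway, at 1099 and 1085 FPKM. The pseudogenes were Rps23-ps1 at 1142 and 1222 FPKM and a predicted entry.

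**Figure D1:**
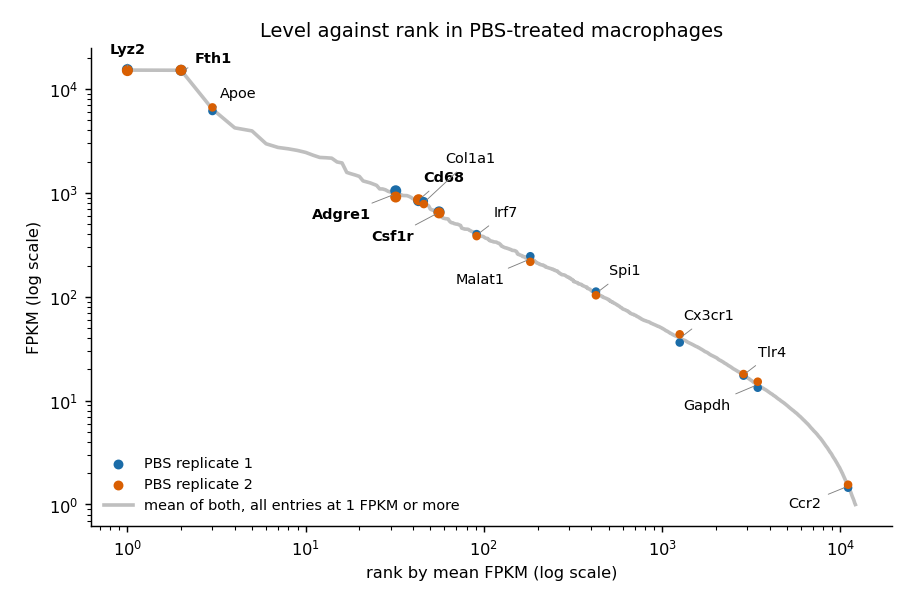
FPKM (vertical axis, log scale) against rank by mean FPKM (horizontal axis, log scale); the grey line is the mean over all entries at 1 FPKM or more and the points are the 2 PBS samples, with the 5 given markers in bold. Lyz2 and Fth1 share the plateau at the top, Adgre1, Cd68 and Csf1r lie at ranks 32, 43 and 56, and Ccr2 lies near the end of the detected range.

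The 5 given macrophage markers were all in the highest 60 entries by mean FPKM as deposited. These ranks rest on exon length: by fragments not divided by length Csf1r was at rank 18, Adgre1 at 22 and Cd68 at 88. Adgre1, the surface receptor F4/80 used to identify mouse macrophages, was at 1049 and 913 FPKM (rank 32), with a mean of 981 ± 95.9 FPKM (SD, n = 2). Cd68, a heavily glycosylated lysosomal membrane protein, was at 842 and 861 FPKM (rank 43), with a mean of 851 ± 12.9 FPKM (SD, n = 2). Csf1r, the receptor for colony-stimulating factor 1, was at 657 and 642 FPKM (rank 56), with a mean of 649 ± 10.7 FPKM (SD, n = 2). Adgre1 was above Cd68 in both samples, but in replicate 2 by less than Adgre1 moved from sample to sample. Csf1r was below both in each sample. None of the markers was near 0.

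Lyz2 has a close neighbour in the genome, Lyz1, the lysozyme of intestinal Paneth cells, and its coding sequence shows how far the fragments of this abundant transcript could be told from those of its copy. On GRCm38 Lyz2 lies on the minus strand at chr10:117277331-117282321 and Lyz1 at chr10:117287797-117292868. The first 150 coding bases from the start codon are shown from the GENCODE M21 transcripts, with bases that differ between the genes in capitals.
Lyz2: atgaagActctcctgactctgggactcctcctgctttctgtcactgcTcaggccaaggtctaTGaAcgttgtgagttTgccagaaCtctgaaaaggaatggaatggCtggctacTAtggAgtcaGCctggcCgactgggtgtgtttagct
Lyz1: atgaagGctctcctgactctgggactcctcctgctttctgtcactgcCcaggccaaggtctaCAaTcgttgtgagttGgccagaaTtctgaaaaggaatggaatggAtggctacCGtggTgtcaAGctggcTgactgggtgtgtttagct
This stretch holds 14 of the 22 differences over 444 coding bases, which leaves 95% identity and a longest shared run of 118 bases. Lyz1 was at 6.12 and 6.06 FPKM, from 208 and 217 fragments against 545337 and 561270 for Lyz2. Whether the Lyz1 value is its own expression or stray fragments of Lyz2 was not tested.

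A list of 30 macrophage identity genes was detected in full, 30 of 30, against 46.7% of all coding genes. Its median level was 338 FPKM, against 7.07 FPKM over all detected entries. The list was chosen with earlier results of these data known, so these values describe its members and are no test of identity. Tyrobp, the adaptor DAP12 that couples activating receptors to kinases, was at 977 and 1002 FPKM. Mpeg1, which encodes the pore-forming protein perforin-2, was at 968 and 990.3 FPKM. C1qc, the remaining C1q chain, was at 921 and 891 FPKM. At the lower end stood Ccr2, the receptor that draws monocytes to inflamed tissue, at 1.45 and 1.55 FPKM. Adgre4, a relative of F4/80, was at 6.17 and 4.62 FPKM, and Cd33, a sialic acid-binding lectin, at 6.01 and 6.72 FPKM. The members thus ran from levels among the lowest that counted as detected to the highest in the table.

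Lists that set tissue-resident macrophages apart were detected at shares from 37.5% to 100%, against 46.7% of all coding genes. The Kupffer and alveolar lists, at 50% each, and the peritoneal list, at 37.5%, were near that background. In the Kupffer cell list 4 of 8 were detected, among them the scavenger receptor Marco at 217 and 203 FPKM and the folate receptor Folr2 at 42.4 and 33.5 FPKM, while the lectin Clec4f was listed at 0 in both samples and Timd4 was at 0.0513 and 0.0325 FPKM. Of the microglia list 6 of 9 were detected, led by Sparc at 325 and 312 FPKM, a gene that the stromal list below also holds and that supplied most of the summed 468 and 466 FPKM. P2ry12, a purine receptor of resting microglia, was at 5.36 and 5.13 FPKM, and the transcription factor gene Sall1 at 0.0141 and 0.0804 FPKM. The red pulp list was detected in full, 7 of 7, from Siglec1, a sialoadhesin, at 348 and 309 FPKM and Hmox1, the heme-degrading enzyme, at 264 and 310.3 FPKM down to Spic at 1.95 and 1.99 FPKM and Treml4 at 1.34 and 1.22 FPKM. Of the 8 peritoneal genes 3 were detected. Gata6, the factor that sets that program, was at 0.0133 and 0.0316 FPKM. Of the alveolar list 4 of 8 were detected, the highest being Chil3, a chitinase-like protein, at 15.7 and 15.9 FPKM.

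Markers of other cell types differed by list. Lymphoid, epithelial, liver, nerve and striated muscle lists had at most 3 members detected each. The NK cell list had 0 of 9 genes detected, with Prf1, Gzma and Eomes listed at 0 in both samples and a summed level of 0.932 and 0.958 FPKM. The T cell list had 2 of 10, Cd4 at 3.71 and 4.18 FPKM and Cd28 at 2.32 and 2.99 FPKM. The T cell receptor chains Cd3e, at 0.0091 and 0.0346 FPKM, and Cd3g, at 0.0114 and 0.0108 FPKM, were under 0.1 FPKM, and Cd3d and Cd2 were listed at 0. In the B cell list the detected genes were Sdc1 at 22.5 and 24.8 FPKM, Cd22 at 8.67 and 8.08 FPKM and Cd79b at 7.87 and 7.74 FPKM. The B cell surface gene Ms4a1 was listed at 0. In the neuron and glia list 2 of 8 were detected, the tubulin gene Tubb3 at 17.6 FPKM in each sample and Mbp, myelin basic protein, at 5.69 and 6.29 FPKM. All 6 hepatocyte genes were listed at 0, for which 3 fragments in replicate 1 would allow up to 0.0476 FPKM for Alb, the albumin gene. Of the 1404 olfactory receptor entries 1 was detected, Olfr56 at 1.6 and 1.01 FPKM, and of the 330 vomeronasal receptor entries 0 was.

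Markers of other myeloid cells differed by list. The dendritic cell list had 1 of 11 detected, which was Bst2. Zbtb46, a factor of conventional dendritic cells, was at 0.153 and 0.112 FPKM, and Flt3, their growth factor receptor, at 0.006 and 0.0114 FPKM. In the neutrophil list 8 of 14 (57.1%) were detected, against 46.7% of all coding genes, and 6 reached 10 FPKM in both samples. Its summed levels were 221 and 212 FPKM, and no member was at 0 in both samples. Csf3r, the granulocyte colony-stimulating factor receptor, was at 60.2 and 57.6 FPKM. The calprotectin subunits S100a9, at 45.3 and 48.9 FPKM, and S100a8, at 29.6 and 30.2 FPKM, and the granule gene Ngp, at 27.3 and 24.1 FPKM, followed. Mmp8, neutrophil collagenase, was at 21.9 and 21.3 FPKM. Mpo, the enzyme of early granules, was at 0.553 and 0.0928 FPKM, and Ly6g, the surface marker used to sort neutrophils, at 0 and 0.112 FPKM. The part of neutrophils or their precursors in these values was not tested. The mast cell, basophil and eosinophil list had 1 of 10, Mcpt8, a basophil protease, at 4.17 and 4.07 FPKM. In the megakaryocyte and platelet list 2 of 8 (25%) were detected. Pf4, a platelet chemokine that macrophages also make, was at 915 and 1019.6 FPKM, and Ppbp at 7.34 and 9.68 FPKM. The platelet receptor genes Gp9, at 0.0422 and 0.0801 FPKM, and Gp1bb, listed at 0, were not detected.

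Genes usually assigned to fibroblasts and smooth muscle were the exception among the marker lists. In the stromal list 21 of 24 were detected, 8 of them at 100 FPKM or more, with summed levels of 3900.4 and 3958 FPKM and no member at 0. The largest part of these sums came from Thbs1, named above among the 30 highest entries, at 956 and 1082 FPKM. Vim, also a member, was at 278 and 280 FPKM. Col1a1, the main chain of fibrillar collagen I, was at 831 and 781 FPKM (rank 46). Its partner chain Col1a2 was at 291 and 279 FPKM. Fn1, fibronectin, which macrophages also make, was at 403 and 400.3 FPKM. Sparc, a collagen-binding matrix protein, was at 325 and 312 FPKM, and Ctgf, a matricellular growth factor, at 273 and 319 FPKM. The smooth muscle list had 10 of 12 detected, with summed levels of 1103 and 1145 FPKM. Acta2, smooth muscle actin, was at 657 and 672 FPKM (rank 53), close to Csf1r in the order. Tagln, transgelin, was at 152 and 166 FPKM, and the myosin light chain gene Myl9 at 106 and 111 FPKM. Acta2 had a mean of 664 ± 11.2 FPKM (SD, n = 2). Some stromal genes differed more between the samples, Col3a1, a fibrillar collagen, being at 21.9 and 14 FPKM, Col6a1 at 36.2 and 26.2 FPKM and Cxcl12, the ligand of Cxcr4, at 16.9 and 13 FPKM, all lower in replicate 2.

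Other members of both lists ranged widely. Actg2, a smooth muscle actin, was at 45.8 and 42.8 FPKM, Cnn1, calponin, at 11.7 and 13.5 FPKM, Smtn, smoothelin, at 5.91 and 6.88 FPKM and Lmod1, leiomodin, at 4.18 and 3.85 FPKM. Postn, the matrix protein periostin, was at 29.7 and 29.2 FPKM and Pdgfrb, a growth factor receptor of mural cells, at 12.4 and 9.28 FPKM. The lowest levels were under 2 FPKM. Myh11, the smooth muscle myosin heavy chain, was at 0.205 and 0.288 FPKM. Des, the muscle intermediate filament desmin, was at 0.168 and 0.357 FPKM. Lum, the proteoglycan lumican, was at 0.0759 and 0.187 FPKM, Thy1, a fibroblast surface protein, at 0.546 and 0.165 FPKM, and Pdgfra, a growth factor receptor of mesenchymal cells, at 1.38 and 0.841 FPKM. The mesenchymal factor Prrx1 was at 4.32 and 4.14 FPKM and Twist1 at 3.4 and 2.95 FPKM. What share of the collagen and actin transcripts came from stromal cells in the marrow culture was not tested. Endothelial markers were mostly under 1 FPKM, 2 of 10 being detected, Eng at 30.1 and 31 FPKM and Pecam1 at 5.63 and 5.18 FPKM.

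Granzyme transcripts were found without other cytotoxic genes. Gzme was at 29.1 and 29.8 FPKM, Gzmd at 8.87 and 13.1 FPKM and Gzmc at 4.82 and 5.92 FPKM, all 3 being serine proteases of the granzyme cluster on chromosome 14. Gzma, Gzmf and Gzmk were listed at 0 in both samples, and Gzmb was at 0.673 and 0.688 FPKM. Gzme had no other entry at 95% identity or more over its coding sequence, but related granzymes may still share fragments. Stem cell markers were low except for Ly6a, which encodes Sca-1 and was at 155 FPKM in each sample, while Kit, the stem cell factor receptor, was at 0.10 and 0.0634 FPKM and Cd34 at 0.413 and 0.339 FPKM. Osteoclast genes were detected for 6 of 10, among them Mmp9 at 118 and 113 FPKM, Acp5, tartrate-resistant phosphatase, at 74.9 and 66.3 FPKM, and Atp6v0d2 at 22.7 and 27.4 FPKM, with Dcstamp at 0.363 and 0.278 FPKM and Ocstamp and Calcr listed at 0.

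**Figure D2:**
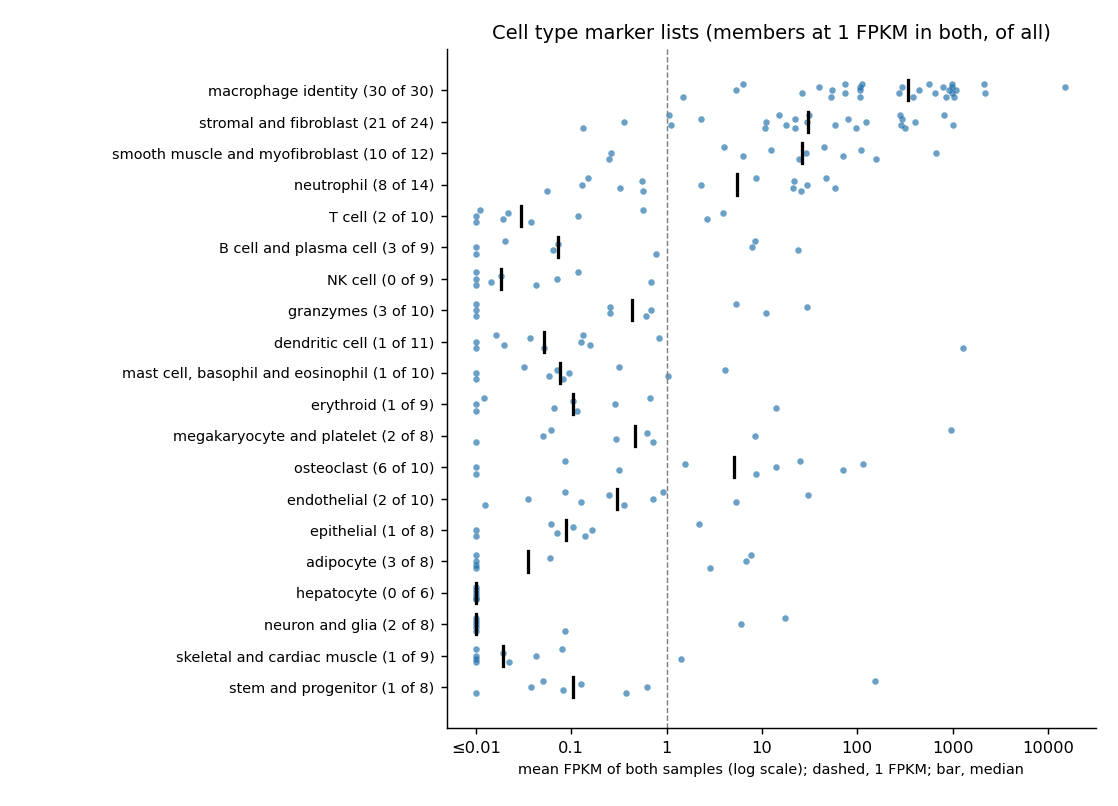
Mean FPKM of both PBS samples (horizontal axis, log scale, values at or under 0.01 drawn at 0.01) for each gene (point) of the macrophage identity list and the 19 lists of markers of other cells (rows), with the median as a black bar and the number detected beside each name. The identity list has the highest median, and all lists were chosen with earlier results of these data known. The stromal and smooth muscle lists have medians of 30.3 and 26.6 FPKM. The medians of the NK cell and T cell lists are 0.0185 and 0.0297 FPKM.

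Cytokine and growth factor receptors were broadly present, with 29 of 36 detected and a median of 22.5 FPKM. Csf1r was higher than every other member by more than the spread between the samples. Next came Tnfrsf1b, the second receptor for tumour necrosis factor, at 161 and 171 FPKM, above its relative Tnfrsf1a at 75.9 and 73.8 FPKM. The chains for granulocyte-macrophage colony-stimulating factor were both detected, Csf2ra at 148 and 155 FPKM and Csf2rb at 86.5 and 85.7 FPKM. The related chain Csf2rb2, which serves interleukin-3, was at 97 and 101 FPKM. Ifngr1, the ligand-binding chain for interferon-gamma, was at 69.3 and 66.7 FPKM. Il10ra, a chain of the anti-inflammatory interleukin-10 receptor, was at 54.2 and 50.1 FPKM. The type I interferon receptor chains Ifnar1, at 42.6 and 41.8 FPKM, and Ifnar2, at 40.8 and 39.2 FPKM, were almost alike, Ifnar1 being slightly higher in both samples. Il4ra, through which interleukin-4 acts, was at 40.7 and 39.9 FPKM. Il1r2, Il18r1 and Flt3 were under 0.1 FPKM in both samples.

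Toll-like receptors sense microbial lipids and nucleic acids, and 9 of 12 were detected. The highest were Tlr13, which reads bacterial ribosomal RNA, at 71.7 and 78.7 FPKM, and Tlr2, which reads lipoproteins, at 75.6 and 61.3 FPKM, and their order turned with the sample. Tlr8 was at 62 and 61.9 FPKM. Tlr7, a receptor for single-stranded RNA, was at 43.3 and 43 FPKM. Tlr9, the DNA receptor, was at 25.2 and 20.8 FPKM, Tlr1, a partner of Tlr2, at 22.8 and 18.3 FPKM, and Tlr4, the lipopolysaccharide receptor, at 17.4 and 18 FPKM. Tlr6 and Tlr3, the receptor for double-stranded RNA, were at 8.99 and 7.6 FPKM and at 8.11 and 7.78 FPKM. The protein sensors Tlr5, at 0.931 and 0.958 FPKM, Tlr12, at 0.14 and 0.20 FPKM, and Tlr11, at 0.0568 and 0.0647 FPKM, were not detected. All 13 of 13 partner genes were. Cd14, the co-receptor for lipopolysaccharide, was at 389 and 381 FPKM and Unc93b1, which carries nucleic acid receptors to endosomes, at 381 and 371 FPKM, both above every receptor they serve. Myd88, the shared adaptor, was at 38.7 and 33.8 FPKM, and Ly96, the MD-2 subunit of the Tlr4 complex, at 11.6 and 11.3 FPKM.

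C-type lectin receptors bind sugars on fungi, bacteria and dead cells. Of 22 genes 14 were detected, led by Clec4d at 333 and 339 FPKM. Clec4a1 was at 164 and 119.6 FPKM, Clec7a, the beta-glucan receptor Dectin-1, at 89.4 and 104 FPKM, Clec4n, Dectin-2, at 81.4 and 73.9 FPKM, and Mrc1, the mannose receptor, at 76.5 and 71.7 FPKM. The lectins Cd209a and Cd209b were listed at 0, and Mgl2 was at 0.0887 and 0.0337 FPKM. Scavenger receptors, which take up modified lipoproteins and debris, were detected for 11 of 15. Stab1, at 233 and 226 FPKM, Cd36, at 205 and 234 FPKM, and Marco, at 217 and 203 FPKM, overlapped, Cd36 being the lowest of them in replicate 1 and the highest in replicate 2. Lrp1, a large endocytic receptor, was at 165 and 171 FPKM, Msr1, the class A scavenger receptor, at 77.7 and 71.1 FPKM, and Scara5 at 0.0671 and 0.029 FPKM.

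Fc and complement receptors had a median of 66.5 FPKM, with 14 of 17 detected. Fcer1g, the signalling chain that activating Fc receptors share, was highest at 822 and 758 FPKM. Fcgr3, a low-affinity receptor for IgG, was at 451 and 444 FPKM, above the high-affinity receptor Fcgr1 at 295 and 255 FPKM and Fcgr4 at 134 and 106 FPKM. C3ar1 and C5ar1, receptors for complement fragments, were at 257 and 241 FPKM and at 176 and 179.9 FPKM. Cr2 and Fcer2a, receptors of B cells, were under 0.1 FPKM. Among genes for the uptake of dying cells, Axl was at 117 and 125 FPKM and its relative Mertk at 53.1 and 56.3 FPKM, their bridging ligand Gas6 at 72.2 and 76.2 FPKM and Mfge8, a bridge to integrins, at 56.6 and 57.9 FPKM. Timd4, Adgrb1 and Havcr1, receptors of the lipid phosphatidylserine in other phagocytes, were under 0.1 FPKM.

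Chemoattractant receptors, which guide cells along gradients, were detected for 11 of 28 (39.3%), a share near the 46.7% of all coding genes. The formyl peptide receptor Fpr1 was at 122 and 86.8 FPKM, and its relative Fpr2 at 70.4 and 45.6 FPKM, both higher in replicate 1. Cxcr4, the receptor for Cxcl12, was at 55 and 75.6 FPKM, higher in replicate 2. Cx3cr1, the fractalkine receptor, was at 36.3 and 43.5 FPKM. Ccr1, which binds Ccl3 and Ccl5, was at 22.5 and 24.5 FPKM. Lymphocyte receptors were low, Ccr8 being listed at 0 and Ccr6, Ccr9 and Cxcr5 being under 0.1 FPKM. P2rx4 and P2rx7, ATP-gated channels, were at 89.2 and 81.5 FPKM and at 33 and 30.6 FPKM, and the other 5 channels of that family were under 1 FPKM. P2ry6, the receptor for uridine diphosphate, led the metabolite receptors at 77 and 74.7 FPKM, followed by Gpr65, an acid sensor, at 63.7 and 55.9 FPKM and S1pr1, a sphingosine phosphate receptor, at 30.9 and 41.4 FPKM. The beta-adrenergic receptors Adrb1 and Adrb3 were under 0.1 FPKM. Among integrins, 15 of 26 (57.7%) were detected. Itgb2, the beta chain of leukocyte integrins, was at 389 and 385 FPKM. Its partners Itgal and Itgam were at 99 and 94.2 FPKM and at 54.7 and 50.5 FPKM. Itgb5 was at 229 and 257 FPKM and Itgb1 at 183 and 189 FPKM, while the epithelial chains Itgb4 and Itgb6 were under 0.1 FPKM.

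**Figure D3:**
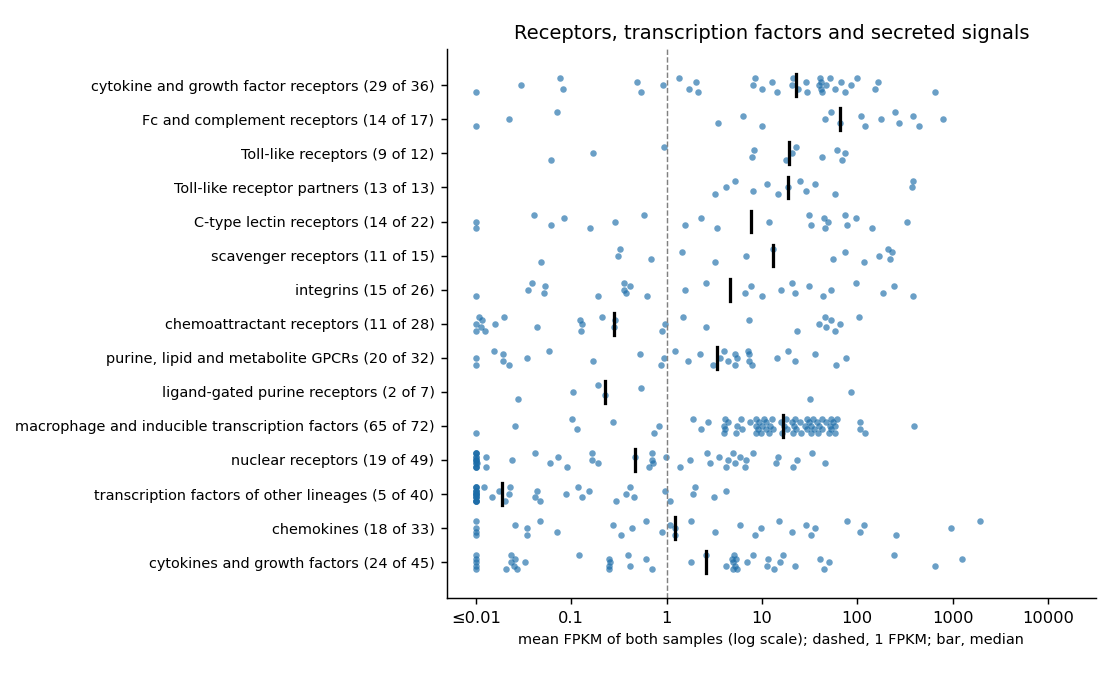
Mean FPKM of both PBS samples (horizontal axis, log scale, values at or under 0.01 drawn at 0.01) for each gene (point) of 15 lists of receptors, transcription factors and secreted signals (rows), with the median as a black bar and the number detected beside each name. Factors of other lineages have a median of 0.0189 FPKM and macrophage and inducible factors one of 16.7 FPKM.

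Transcription factors were detected for 65 of 72 members of the macrophage and inducible list, but at modest levels, 3 of them reaching 100 FPKM in both samples. Irf7, the interferon-inducible factor of antiviral responses, was highest at 401 and 384 FPKM. Id3, an inhibitor of basic helix-loop-helix factors, was at 119.7 and 119.8 FPKM. Spi1, the gene of PU.1, was at 112 and 103 FPKM. Maf, a factor that restrains self-renewal of macrophages, was at 61.6 and 61.5 FPKM. Cebpa, a partner of PU.1 in myeloid cells, was at 39.4 and 55.4 FPKM, higher in replicate 2. Irf5, which acts downstream of Toll-like receptors, was at 55.9 FPKM in each sample, and Irf8 at 33 and 35.2 FPKM. The stress factors Atf3, at 47.4 and 55.6 FPKM, Nfe2l2, at 59.2 and 57.4 FPKM, and Hif1a, at 53.6 and 51.5 FPKM, were at like levels, the range of Atf3 spanning that of Hif1a. Spib, a relative of PU.1 in other lineages, was under 0.1 FPKM and Mycn was listed at 0.

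Factors of other lineages were low, 5 of 40 being detected and 10 listed at 0 in both samples. Those detected were Prrx1, Twist1, Spic, Runx2, at 1.75 and 2.04 FPKM, and Ebf1, at 1.01 and 1.18 FPKM. Spic is also a member of the red pulp macrophage list above. Gata1, the erythroid factor, was at 0.0152 and 0.0145 FPKM, Pax5, the B cell factor, at 0.0084 and 0.0319 FPKM, and Foxp3, of regulatory T cells, at 0.401 and 0.425 FPKM. Pou5f1, Sox2, Myod1 and Hnf4a were listed at 0. Nuclear receptors were detected for 19 of 49 (38.8%), against 46.7% of all coding genes. Rxra, the partner of many others, was at 44 and 47.5 FPKM. The oxysterol receptors Nr1h2, at 33.7 FPKM in each sample, and Nr1h3, at 23.6 and 18.9 FPKM, followed, with Esrra at 23.3 and 23.2 FPKM. Nr3c1, the glucocorticoid receptor, was at 14 and 14.3 FPKM. Pparg was at 2.68 and 3.0 FPKM, below Ppard at 6.7 and 7.07 FPKM, and Ppara was listed at 0.

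Chemokine genes were steeply graded: 18 of 33 (54.5%) were detected, against 46.7% of all coding genes, and 5 reached 100 FPKM in both samples. After Ccl5 and Pf4 came Ccl6 at 251 and 260.3 FPKM, Cxcl16, which is made as a membrane protein, at 123 and 112 FPKM and Ccl9 at 114 and 102 FPKM. The monocyte attractants Ccl2, at 91.3 and 63.1 FPKM, and Ccl7, at 39.4 and 26.2 FPKM, were both higher in replicate 1. Ccl3 was at 29.8 and 28.6 FPKM. Ccl17 and Cxcl13 were under 0.1 FPKM and Ccl11 was listed at 0. Cytokines and growth factors were detected for 24 of 45 (53.3%), against the same 46.7%. Spp1, osteopontin, was at 623 and 684 FPKM and Mif, macrophage migration inhibitory factor, at 244 and 243 FPKM. Tgfb1 was at 50.7 and 50.1 FPKM, Csf1, the ligand of Csf1r, at 43.1 and 47.5 FPKM, Vegfa at 36.6 and 44.9 FPKM and Igf1 at 21.6 and 23.3 FPKM. Il1b was at 21.6 and 11.6 FPKM and Tnf at 12.7 and 9.9 FPKM. Ifng and Il13 were listed at 0, and Csf2, Csf3 and Il12b were under 0.1 FPKM.

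Activation genes gave a mixed picture. In the classical list 15 of 20 (75%) were detected, against 46.7% of all coding genes. Saa3, an acute-phase apolipoprotein, was at 628 and 445 FPKM. Acod1, the enzyme that makes itaconate, was at 55.5 and 29.3 FPKM, Gbp2, an interferon-inducible GTPase, at 46.2 and 36.2 FPKM, and Ptgs2, the inducible cyclooxygenase, at 9.36 and 13.2 FPKM. Nos2, the inducible nitric oxide synthase, was at 0.185 and 0.128 FPKM. In the alternative list 8 of 19 (42.1%) were detected, a share near that of all coding genes. Tgm2, a transglutaminase, was at 138 and 187 FPKM, higher in replicate 2. Arg1, arginase, was at 14.2 and 16.2 FPKM, and Retnla, a secreted resistin-like protein, at 0.124 and 0 FPKM. Chil4 was listed at 0.

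The lysosomal and class I presentation lists were detected in full, the complement and class II lists in part. All 32 lysosomal genes were detected, with a median of 104 FPKM. Lgmn, asparagine endopeptidase, was at 585 and 544 FPKM, Hexa, a lysosomal hexosaminidase subunit, at 353 and 374 FPKM, and Lipa, acid lipase, at 271 and 312 FPKM. Among complement genes 12 of 21 (57.1%) were detected, against 46.7% of all coding genes. Cfp, properdin, which stabilises the alternative pathway convertase, was at 511 and 471 FPKM and C3 at 285 and 274 FPKM. Terminal components C6 and C9 were listed at 0. Class I presentation genes were all detected, 17 of 17, with Tapbp, tapasin, at 363 and 347 FPKM and Psmb8, an immunoproteasome subunit, at 108 and 105 FPKM. For class II 6 of 11 (54.5%) were detected. Cd74, the invariant chain, was at 142 and 134 FPKM, H2-Ab1 at 43.3 and 42 FPKM and H2-Aa at 22.7 and 22.4 FPKM. Ciita, the class II transactivator, was at 0.172 and 0.189 FPKM. In the list of costimulation and checkpoint ligands 11 of 13 (84.6%) were detected, against 46.7% of all coding genes, with summed levels of 740 and 710 FPKM. The 2 members that reached 100 FPKM in both samples are not named here. Of those named, the co-stimulatory genes were Cd86, at 7.52 and 8.65 FPKM, and Cd40, at 4.71 and 3.59 FPKM. Both were below the inhibitory genes Cd274, which encodes PD-L1, at 48.4 and 48.5 FPKM and Vsir, which encodes VISTA, at 94.6 and 99.1 FPKM. That order holds for these genes and does not describe the list.

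Transcripts for membrane and cytosolic subunits of the phagocyte oxidase were found together. Its membrane subunits Cyba and Cybb were at 687 and 713 FPKM and at 297 and 285 FPKM, and the cytosolic subunits Ncf1 and Ncf4 at 159 and 153 FPKM and at 84.3 and 77.6 FPKM. Slc11a1, the NRAMP metal transporter of phagosomes, was at 145 and 150.1 FPKM. Iron genes beyond ferritin were lower: Slc40a1, the iron exporter ferroportin, was at 14.7 and 16.5 FPKM and Tfrc, the transferrin receptor, at 14.1 and 13.9 FPKM, and Hamp, hepcidin, was under 0.1 FPKM. In lipid handling 24 of 26 genes were detected. Plin2, a lipid droplet coat protein, was at 344 and 387 FPKM, Npc2, which moves cholesterol out of lysosomes, at 282 and 277 FPKM, and Abca1, the cholesterol exporter, at 69.4 and 75.4 FPKM. Trem2, a lipid receptor that signals through Tyrobp, was at 107 and 119 FPKM.

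Glycolytic genes were detected for 18 of 19, led by Pkm, pyruvate kinase, at 425 and 442 FPKM, Aldoa, aldolase, at 375 and 388 FPKM and Ldha, lactate dehydrogenase, at 283 and 280.1 FPKM. Cell cycle genes were detected for 31 of 32 with a median of 6.23 FPKM. Cdkn1a, the cyclin-dependent kinase inhibitor p21, was highest at 77.9 and 74.1 FPKM, and Pcna, the replication clamp, was at 53.7 and 52.6 FPKM. Ccnd1, a cyclin of the first growth phase, was at 33.6 and 33.4 FPKM, and Mki67, a marker of cycling cells, at 5.82 and 5.69 FPKM. Y-linked genes were detected, Ddx3y at 11.6 and 12.1 FPKM and Eif2s3y at 9.5 and 9.94 FPKM, and Xist, the RNA that silences an X chromosome in females, was at 0.0041 and 0.0059 FPKM, from 2 and 3 fragments. Among named long noncoding entries Malat1, a nuclear RNA, was highest at 246 and 217 FPKM (rank 182), after 3 entries with predicted names. Mir142hg, the host of a blood cell microRNA, was at 26.7 and 23 FPKM, AW112010 at 136 and 113 FPKM and AU020206 at 21.7 and 27.2 FPKM. The annotation also files Ifi30, the lysosomal thiol reductase, at 188 and 186 FPKM, and Cct6a, a chaperonin subunit, at 35.8 and 36.4 FPKM, under noncoding biotypes, although both are known as protein genes.

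The 2 samples were close. Across 12504 entries at 1 FPKM in either sample, which are not independent replicates, log2(FPKM + 1) values had a Pearson correlation of 0.988. Of 7186 entries with a mean of 5 FPKM or more, 34 (0.473%) differed at least 2-fold on that scale, 14 (0.195%) being higher in replicate 2 and 20 (0.278%) lower. No member of the 58 gene lists was among the 34. That says little about the lists, because most of the 34 were pseudogenes and the share was only 0.0451% among the other entries counted below. Pseudogenes supplied 27 of the 34, from 436 pseudogene entries at that level. The mitochondrial genome and ribosomal protein genes supplied 2 each, and all 6648 other entries only 3. The ribosomal protein entries were Rps6 and Rpl9-ps6, the latter annotated as coding although its name is that of a pseudogene. The SD of the log2 difference was 0.767 over pseudogenes and 0.127 over the other entries.

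Outside pseudogenes, ribosomal protein genes and the mitochondrial genome, 3 entries passed 2-fold, one of them with a predicted name. Rnu73b, a small nucleolar RNA, was at 9.42 and 1.99 FPKM, from 18 and 4 fragments. Mgp, a matrix protein that inhibits calcification, was higher in replicate 1, at 11.6 and 4.79 FPKM. Acod1 and Il1b, with the values above, were lower in replicate 2 as well. Ptx3, a secreted pattern recognition protein, was at 9.02 and 4.42 FPKM, Ccl12, a monocyte chemokine, at 13.1 and 6.64 FPKM, and Irak3, which dampens Toll-like receptor signalling, at 31 and 19.1 FPKM. Genes with higher values in replicate 2 were Oser1 at 7.19 and 13.8 FPKM, Sema7a, a membrane semaphorin, at 9.03 and 13.5 FPKM and Nqo1, a quinone reductase, at 5.77 and 8.32 FPKM. For a pair of samples with no stated origin these differences have no test.

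The largest swap was between copies of Rpl10, a protein of the large ribosomal subunit. Rpl10-ps5 was at 332 and 9.35 FPKM and Rpl10-ps6 at 9.38 and 406 FPKM, each high in the sample where the other was low, while Rpl10 itself was at 24.6 and 23.7 FPKM. Stretches of the coding sequence from base 21 to base 100 after the start show how little separates them, with capitals at the positions where the copies are not all alike. Rpl10 lies on GRCm38 at chrX:74270812-74273135 on the plus strand, Rpl10-ps5 at chr8:94222993-94223634 on the plus strand and Rpl10-ps6 at chr19:37295155-37295796 on the minus strand.
Rpl10: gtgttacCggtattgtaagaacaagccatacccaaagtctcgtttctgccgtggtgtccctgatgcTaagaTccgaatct
Rpl10-ps5: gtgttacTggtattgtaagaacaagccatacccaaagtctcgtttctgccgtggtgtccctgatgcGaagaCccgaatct
Rpl10-ps6: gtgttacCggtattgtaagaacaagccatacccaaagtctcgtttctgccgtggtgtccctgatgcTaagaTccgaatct
Over 642 coding bases Rpl10-ps5 differed from Rpl10 at 3 bases and Rpl10-ps6 at 1, with shared runs of up to 550 and 456 bases. Summed over the 11 entries at 95% identity or more over at least 50% of the coding sequence, the family had 7340 and 9042 fragments, a ratio of 1.23 between the samples.

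Several genes used as references have near-identical entries. Gapdh, the glycolytic enzyme often used to normalise expression, was at 13.3 and 15.2 FPKM, far below Pkm and Aldoa of the same pathway. Fragments over 75 near-identical entries summed to 12441 and 7672, of which Gapdh itself held 11.9% and 23.2%. From replicate 1 to replicate 2 the sum changed by a factor of 0.617, while the fragments of Gapdh changed by a factor of 1.2. Ppia, cyclophilin A, was at 8.7 and 9.39 FPKM and held 7.38% and 8.13% of the fragments of its 18 entries. Rps23 was at 27.5 and 19.6 FPKM, under its pseudogene Rps23-ps1 among the 30 highest, and held 5.71% and 3.94% of its family. Rps6, at 40.4 and 17.4 FPKM, was lower in replicate 2 while its pseudogene Rps6-ps4, at 224 and 388 FPKM, was higher there. Eno1 held 55.5% and 48.2% of its 4 entries, next to the near-identical copy Eno1b at 183 and 292 FPKM. By contrast, Fth1, Actb and C1qa had no other entry at that identity. Levels of copied genes are uncertain, since how fragments that match several places were counted is not given in the sources used here. The part of copies in these levels was not tested.

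Neighbouring genes of the mitochondrial genome differed between the samples too. In genome order, mt-Co3 was at 732 and 1158 FPKM, mt-Nd3 at 3.95 and 96.2 FPKM, mt-Nd4l at 3.25 and 121 FPKM and mt-Nd4 at 225 and 293 FPKM. These subunits of the respiratory chain were 1.58-fold, 24.4-fold, 37.2-fold and 1.3-fold higher in replicate 2. The other 11 coding and ribosomal entries of that genome lay between 0.933-fold and 1.14-fold. Nuclear entries with 95% identity or more to mt-Nd3 and to mt-Nd4l took 64 and 76 fragments and 74 and 101 fragments, against 949 on mt-Nd3 and 1019 on mt-Nd4l in replicate 2. With those entries added, the sums were still 10.1-fold and 11.2-fold higher in replicate 2.

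**Figure D4:**
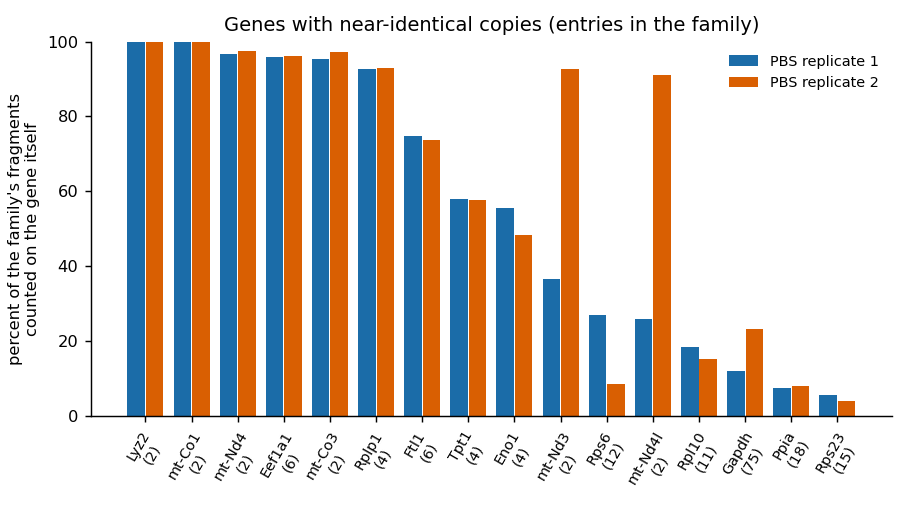
Percent of a family's recovered fragments that were counted on the named gene itself (vertical axis, from 0) in PBS replicate 1 and replicate 2 (bars) for 16 genes with near-identical entries, the number of entries in brackets. Lyz2 and mt-Co1 hold nearly all of their families, Rps23 and Ppia under 10%, and mt-Nd3 and mt-Nd4l differ most between the samples.

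Promoter windows of 250 bases before to 50 after a start, from RefSeq on build GRCm38.p6, are shown for 2 macrophage genes and for a broadly used gene at the head of the ranking. Capitals mark GGAAGT or its reverse complement ACTTCC, a core of sites for ETS family factors such as PU.1, searched on both strands. The windows are Lyz2 at chr10:117282223-117282522 (minus strand), Cd68 at chr11:69666121-69666420 (minus strand) and the second of the Fth1 windows at chr19:9982396-9982695 (plus strand).
Lyz2: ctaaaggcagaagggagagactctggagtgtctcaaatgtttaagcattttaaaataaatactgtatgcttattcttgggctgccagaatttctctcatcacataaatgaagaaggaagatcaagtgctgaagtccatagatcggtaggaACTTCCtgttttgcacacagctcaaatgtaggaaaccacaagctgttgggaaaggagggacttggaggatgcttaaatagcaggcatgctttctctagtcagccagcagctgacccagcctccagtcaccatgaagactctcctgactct
Cd68: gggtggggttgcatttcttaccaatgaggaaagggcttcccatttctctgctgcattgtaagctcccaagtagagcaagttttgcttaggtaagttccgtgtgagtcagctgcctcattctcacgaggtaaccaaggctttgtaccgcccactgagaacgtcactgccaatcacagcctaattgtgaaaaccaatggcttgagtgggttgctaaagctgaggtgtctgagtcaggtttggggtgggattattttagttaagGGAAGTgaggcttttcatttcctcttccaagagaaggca
Fth1: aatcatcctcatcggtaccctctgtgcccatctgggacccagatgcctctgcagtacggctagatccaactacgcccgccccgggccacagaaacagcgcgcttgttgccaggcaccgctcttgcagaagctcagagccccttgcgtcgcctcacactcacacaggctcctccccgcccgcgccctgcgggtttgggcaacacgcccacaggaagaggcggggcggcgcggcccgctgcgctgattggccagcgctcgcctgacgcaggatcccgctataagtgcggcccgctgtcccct
The Lyz2 window has 1 CpG and a GC content of 44.3%, the Cd68 window 4 CpG and 47.7%, and the Fth1 window 27 CpG and 67%. The other Fth1 window, at an upstream start and not printed, has 4 CpG and 36.7%, as few CpG as Cd68 and a lower GC content than Lyz2, so that the values of Fth1 turn on the start chosen. GGAAGT stood in 23.8% of all 32851 windows of that length, which held 12.4 CpG on average. Among the windows found, both values changed with the level of the gene. Windows of genes listed at 0 in both samples, found for 3619 of 5130 genes, had the motif in 20.5% and 4.86 CpG on average. Those of genes above 10 to 100 FPKM, found for 3106 of 3833, had it in 30.7% and 21.8 CpG. Those above 100 FPKM, found for 262 of 367, had it in 34.5% and 16.6 CpG.

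Of the lists, the Toll-like receptors had windows for 10 of 12 genes, with a mean of 5.5 CpG and GGAAGT in 7 of 12 windows. Fc and complement receptors, with 15 of 17 genes, had 4.58 CpG and the motif in 8 of 19. Lysosomal genes, with 26 of 32, had 12.9 CpG and the motif in 12 of 30 (40%). Of the 32 genes 31 reached 10 FPKM in both samples, so the classes above 10 FPKM are their nearer background. Their mean CpG was below that of both classes. Housekeeping genes, with 18 of 22, had 25.9 CpG and the motif in 4 of 21. For the macrophage identity list the same count is void, because 22 of 30 genes, under 80%, had a window. The classes listed at 0, with 3619 of 5130 genes, and above 100 FPKM, with 262 of 367, were under 80% as well. Values of these classes describe only the windows found, and the comparison with the class above 100 FPKM is limited to those. Ribosomal protein genes, with 63 of 89 and so under 80% too, had the motif in 33 of the 75 windows found (44%). Macrophage and inducible transcription factors, with 54 of 72, also under 80%, had it in 18 of 77 (23.4%). A high share of GGAAGT was therefore not shown to be particular to macrophage lists. A match describes letters in a window and is no evidence of binding.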

How the data were processed

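RNA of the 2 PBS samples was the material, with total RNA extracted in TRIzol and Illumina libraries, per the labels. The deposited values were FPKM in 1 table of 6 value columns. Per the submitters' processing notes, reads were aligned with HISAT2 to GRCm38; what counted the fragments, on which gene models and with what strand setting, and what the column prefix DXM marks, is not given in the sources used here. With strand unknown, a gene and its antisense partner share fragments that cannot be separated. Gene IDs matched GENCODE M21 for 54409 of 54446 entries. FPKM times exon length gave whole fragments for 99% and 98.9% of values up to 20 fragments (tolerance 0.1); the recovery was tested on simulated data. In units of 1000000, recovered fragments summed to 28.5 and 30.0, above the implied totals. Fragment counts cover counting error only.

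Members and lists were chosen with earlier results of these data known. The 58 lists held 900 distinct genes found in the table, 572 of them detected. Named genes were the 5 given markers, the 30 highest entries, up to 8 of each program list and 6 of each marker list by mean FPKM, members under 0.1 FPKM, 8 noncoding entries and the 8 largest replicate differences each way; predicted names were counted only, and a few genes that the rule names are not reported here. Genes of low or middle rank named for contrast (Ccr2, Adgre4, Cd33, Irf8, Nos2, Retnla, Mki67, Mpo, Ly6g, Myh11, Des, Lum, Thy1, Pdgfra and others), copied genes and the differences outside copied genes were chosen after their values were seen. Copies were found with BLAST 2.17.0. Calculations used Python 3.11.15 and pandas 2.3.3. Alternatives were other thresholds, scalings, lengths, denominators and leaving out a replicate.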

Additional observations from a re-analysis of the deposited data

How the results depend on the processing

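No paired analysis was possible because the samples form 1 group and no comparison between groups was made. The number of detected entries was 7007 at 5 FPKM and 4485 at 10 FPKM, and it kept within 1.5 times the reported count at 0.1 and 0.5 FPKM, in either sample (12504) and with the exon lengths of the basic annotation set (12203), a length alternative chosen after seeing the data. Its leave-one-out values were 12137 to 12175. The median of detected entries became 20.6 when values were rescaled to sum to 1000000 and 9.64 FPKM with the basic exon lengths, and 7.07 to 7.10 FPKM with 1 replicate left out. The share of the 10 highest entries was 12.2% of recovered fragments, 17.7% of summed FPKM without mitochondrial and ribosomal protein entries and 18.1% with basic lengths, and 16.9% to 17.1% with 1 replicate left out. Of the 30 highest entries 20 remained among the 30 highest by fragments, where Fth1 came first and Lyz2 the second, and 28 to 29 under the other alternatives. Fth1 depended most on length, with a mean of 33790.2 FPKM with basic lengths, and Csf1r had 767.6 FPKM there. List members at 1 FPKM totalled 572, and 465 to 614 at other thresholds or without a replicate. Entries differing at least 2-fold numbered 86 with a mean of 1 FPKM or more, 145 with no filter and 3 without pseudogene, mitochondrial and ribosomal protein entries, a restriction chosen after seeing the data. Among list shares 148 of 320 values moved by no more than the SD between the samples and 172 moved by more. Among list counts 228 of 256 kept within 1.5 times. For the 5 given markers 17 of 25 rank values and 7 of 25 level values moved by more than the spread between the samples. Depth limits values under about 0.1 FPKM.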
